A study of Mus musculus with 12 samples.

Results

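The enzymes that make nucleotides and the one-carbon units these need were followed in mouse mammary tumours driven by Myc, with and without the kinase Hunk. A list of 37 enzyme genes was chosen by name, and 31 of them had a probe set carrying their symbol alone, out of 12393 genes so named on the array. Where a gene had several, the one with the highest mean signal stood for it. The other 6 genes, Dctd, Pfas, Atic, Impdh2, Gmps and Mthfd1l, were not analysed here. By role, 5 of the 31 act in pyrimidine synthesis and salvage, 7 in deoxynucleotide supply, 12 in purine synthesis and salvage, and 7 in serine synthesis and the folate cycle. All 31 lay above array background on all 12 arrays and above the expression filter, a mean log2 signal of 3.98.

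The samples were mammary gland tumours of female FVB mice, and both groups carried the MMTV-c-myc transgene, in which a mouse mammary tumour virus promoter directs Myc to the mammary epithelium. Of the 12 arrays, 6 held tumours labelled Hunk KO, in which a neomycin resistance cassette replaced the likely promoter and the first exon of Hunk, and 6 held tumours labelled Hunk WT. The mice had been mated and were followed until tumours reached a set size, and their ages are not given in the sources used here. Whether each array came from a separate mouse is also not given, so the p-values measure only how these samples vary, which may in part be technical variation. In whole tumours, fewer cells of a type and less RNA per cell cannot be told apart.

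Purines and pyrimidines are built on ribose phosphate that comes from phosphoribosyl pyrophosphate (PRPP). Purine synthesis assembles the ring on this sugar in a chain of steps, whereas pyrimidine synthesis makes orotate first and attaches the sugar afterwards. Ribonucleotide reductase turns ribonucleotides into the deoxy forms used for DNA, and thymidylate needs a further methyl group from folate. Serine is the main donor of these folate-bound one-carbon units, through serine hydroxymethyltransferases in the cytosol and in mitochondria. Many of the genes are known targets of Myc, which binds the E-box, and several of the deoxynucleotide genes are known to be induced in S phase.

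Promoter stretches are shown for the 2 genes whose knockout and wild-type tumours did not overlap, Umps and Shmt1, as the 100 bases before the annotated start. Those of 2 genes with an E-box, Nme1 and Tyms, are shown around that motif. The stretches are from RefSeq, build GRCm38.p6, each on the minus strand and written 5′ to 3′. Capitals mark matches on either strand to the GC box GGGCGG, the CCAAT box (CCAAT, or ATTGG on the other strand) and, for Nme1 and Tyms, only the E-box CACGTG.
Umps, chr16:33967039-33967138: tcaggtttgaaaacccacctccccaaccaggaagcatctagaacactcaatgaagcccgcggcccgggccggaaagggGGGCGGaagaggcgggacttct
Shmt1, chr11:60811266-60811365: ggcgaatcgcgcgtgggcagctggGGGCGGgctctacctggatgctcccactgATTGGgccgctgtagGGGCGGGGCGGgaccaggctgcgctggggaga
Nme1, chr11:93968273-93968310: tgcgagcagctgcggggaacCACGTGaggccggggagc
Tyms, chr5:30073661-30073706: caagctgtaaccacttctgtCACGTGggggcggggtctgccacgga

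Promoters were matched for 30 of the 31 genes, and motifs were sought on both strands of the 250 bases before the start. The E-box was present in 4 of the 30 (Dtymk, Nme1, Paics and Tyms), or 13.3%, against 8.75% of 5577 promoters of the genes tested. The GC box was present in 21, or 70.0%, against 60.9%, and the CCAAT box in 12, or 40.0%, against 36.5%. The E2F motif, sought as TTTCCCGC, TTTCGCGC, TTTGCCGC and TTTGGCGC, stood only in Ppat (3.33%, against 3.62%). The C/EBP-ATF element TGATGNAA stood only in Prps1 (3.33%, against 1.81%). Of the 27025 promoters of all annotated genes, non-coding ones included, 6.05% held the E-box, 32.9% the GC box, 34.5% the CCAAT box, 1.91% the E2F motif and 3.53% the C/EBP-ATF element. The motifs may overlap each other. The Umps window held the GC box alone of these motifs, and the Shmt1 window the GC box and the CCAAT box.

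Facts of the whole series that touch these results are as follows. Hunk itself was above array background in 0 of 6 knockout and 4 of 6 wild-type tumours, and the knockout mean lay at least 1.41-fold below that of the wild type. The measured log2 difference, which includes values under background, was -1.26 (exact two-sided permutation p = 0.0108, limma adjusted p = 0.181 over all genes), and it was -0.64 with values under background raised to it. The labelled mammary tissue was checked on Krt18, a luminal keratin, whose mean log2 signal was 12.02 (SD 0.63, n = 6) in knockout and 12.19 (SD 0.67, n = 6) in wild-type tumours. Krt18 does not stand for the whole luminal list. Of its 10 markers 8 had a positive difference and 2 rose in the knockout, with a median log2 difference of 0.73. The 3′ minus 5′ signal difference of beta-actin, a sign of RNA quality, ran from 1.26 to 1.72 in the knockout and from 1.21 to 1.34 in the wild type (exact two-sided permutation p = 0.0108). Knockout tumours 4 and 5 stood apart as the closest pair of arrays, with an SD of their difference over genes of 0.333 against 0.542 for the next pair. The arrays had median signals from 3.87 to 4.10, and precision is limited by how many arrays there were.

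The main comparison asked which of these enzymes differed in tumours lacking Hunk. In the knockout 2 of the 31 fell, Umps of the pyrimidine pathway by 0.52 on the log2 scale and the thymidine kinase Tk1 by 1.05. Another 29 did not pass, and 0 rose (limma, Benjamini-Hochberg adjusted p under 0.05 over 6825 genes). At an unadjusted p under 0.05 limma had 7 of the 31 lower and 0 higher. Over all genes tested 3.34% were called, 1.68% lower and 1.66% higher, and 10.5% were lower at the unadjusted level. The 2 called genes are 6.45% of the members, a small count beside that background. Of the 31, 21 had a negative difference (67.7%, against 49.2% of all genes tested), and the median difference was -0.29, against 0.01 for all genes tested. Umps and Shmt1 had no overlap between groups, both lower in the knockout. Such a separation was found for 3.15% of the genes tested, downward for 1.44% and upward for 1.71%. The median half-width of the 95% interval of a member's difference was 0.51, so differences smaller than that were mostly not resolved.

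**Figure D1:**
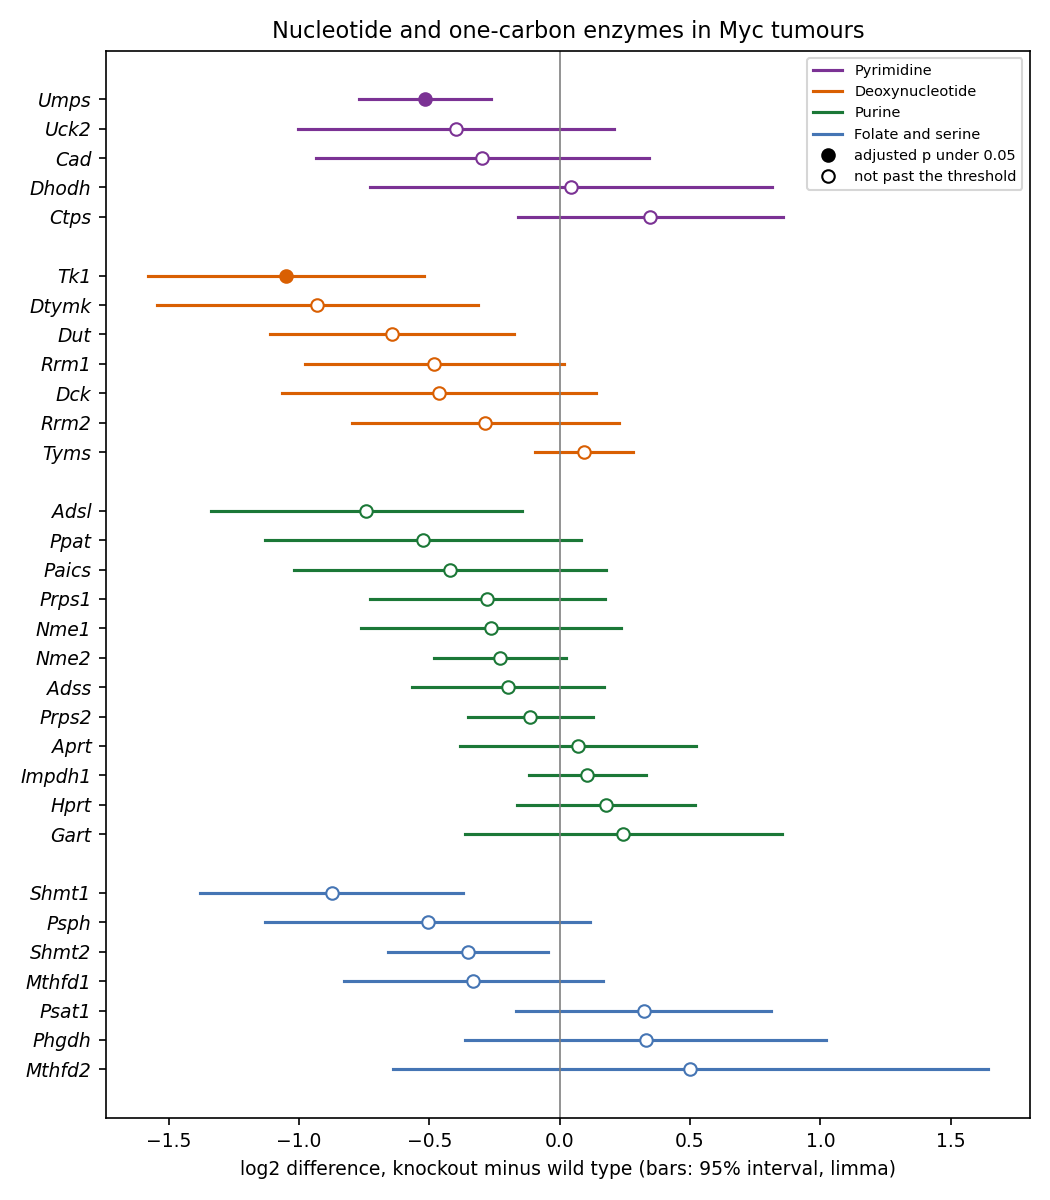
The log2 difference between knockout and wild-type tumours (x axis, with 95% intervals from limma, 6 arrays a group) is plotted for each of the 31 genes (y axis) by class. Filled points, Umps and Tk1, passed the threshold, and the intervals of 7 genes lie wholly below 0 while no interval lies wholly above it.

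In pyrimidine synthesis, Umps fell in the knockout. Umps makes uridine monophosphate from orotate in the last steps of the de novo pathway. Its log2 signal ran from 6.00 (median 6.08) to 6.16 in the knockout and from 6.35 (median 6.62) to 6.90 in the wild type. All 6 knockout tumours lay below every wild-type tumour, and the knockout values were close together, with an SD of 0.07 against 0.21. The level was 1.43-fold lower (log2 difference -0.52, SE 0.12, limma adjusted p = 0.035). The call held in 3 of 12 fits with 1 array left out, those without wild-type tumours 1, 2 or 6, and the adjusted p reached 0.0803 in the others.

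The other 4 pyrimidine genes did not pass, with 2 negative and 2 positive differences. Uck2, which phosphorylates uridine in salvage, ran from 7.03 (median 8.24) to 8.39 in the knockout and from 7.62 (median 8.33) to 9.01 in the wild type (log2 difference -0.40, SE 0.28, limma adjusted p = 0.436). The knockout values overlapped widely with the wild type, with knockout tumours 3 and 6 lowest. Ctps, which makes CTP from UTP, ran from 8.77 (median 9.18) to 10.03 in the knockout and from 8.51 (median 9.07) to 9.28 in the wild type (difference 0.35, interval -0.16 to 0.86, adjusted p = 0.419). Knockout tumours 4 and 5, the close pair, held its highest values, 10.03 and 9.90. Cad, the trifunctional enzyme that starts the pathway, ran from 7.37 to 8.22 in the knockout, inside the wild-type range of 6.96 to 8.94. Dhodh, the mitochondrial dehydrogenase that makes orotate, ran from 4.32 to 6.41 in the knockout and from 5.43 to 6.15 in the wild type (difference 0.04). Knockout tumours 1 and 6 lay below every wild-type tumour, and knockout tumours 2, 4 and 5 above every one.

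Among deoxynucleotide genes Tk1 fell and 5 of the other 6 had a negative difference. Tk1, the cytosolic thymidine kinase of S-phase cells, ran from 5.11 (median 5.65) to 5.98 in the knockout and from 5.95 (median 6.62) to 7.23 in the wild type. The overlap was slight, with 5 of 6 knockout tumours below the lowest wild-type tumour and only knockout tumour 1 above it. The level was 2.07-fold lower (log2 difference -1.05, SE 0.24, limma adjusted p = 0.0384). The call held in 4 of 12 fits with 1 array left out, those without knockout tumour 1 or wild-type tumours 1, 2 or 6, and the adjusted p reached 0.093 in the others.

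Dtymk and Dut, which also lead to dTTP, had negative differences that did not pass. Dtymk, which phosphorylates thymidylate, ran from 6.20 (median 6.72) to 7.80 in the knockout and from 7.16 (median 7.65) to 8.31 in the wild type (log2 difference -0.93, 95% interval -1.54 to -0.32, limma adjusted p = 0.0962). Knockout tumour 4 was its only knockout value well inside the wild-type range, and without that tumour Dtymk passed (difference -1.13, adjusted p = 0.0451). Dut, which removes dUTP and so keeps uracil out of DNA, ran from 7.67 (median 8.35) to 8.80 in the knockout and from 8.70 (median 8.89) to 9.34 in the wild type (difference -0.64, interval -1.11 to -0.18, adjusted p = 0.128). For Dut, 4 of 6 knockout tumours lay below every wild-type tumour.

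Ribonucleotide reductase did not pass in either subunit. Rrm2, its small subunit, ran from 8.63 (median 9.06) to 9.94 in the knockout and from 9.26 (median 9.36) to 10.09 in the wild type (log2 difference -0.29, 95% interval -0.80 to 0.23, limma adjusted p = 0.508). Knockout tumours 1 and 2 were high and the other 4 lay below every wild-type tumour. Rrm1, the large subunit, ran from 7.84 to 9.05 in the knockout and from 8.31 to 9.52 in the wild type, and again knockout tumour 1 was the highest of its group. Dck, which salvages deoxycytidine and other deoxynucleosides, ran from 7.06 to 8.17 in the knockout and from 7.43 to 8.96 in the wild type. Tyms, which methylates dUMP, ran from 4.43 to 4.75 and from 4.29 to 4.71 in the same order. Its probe set was near background, and a probe set shared with the pseudogene Tyms-ps was not used.

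**Figure D2:**
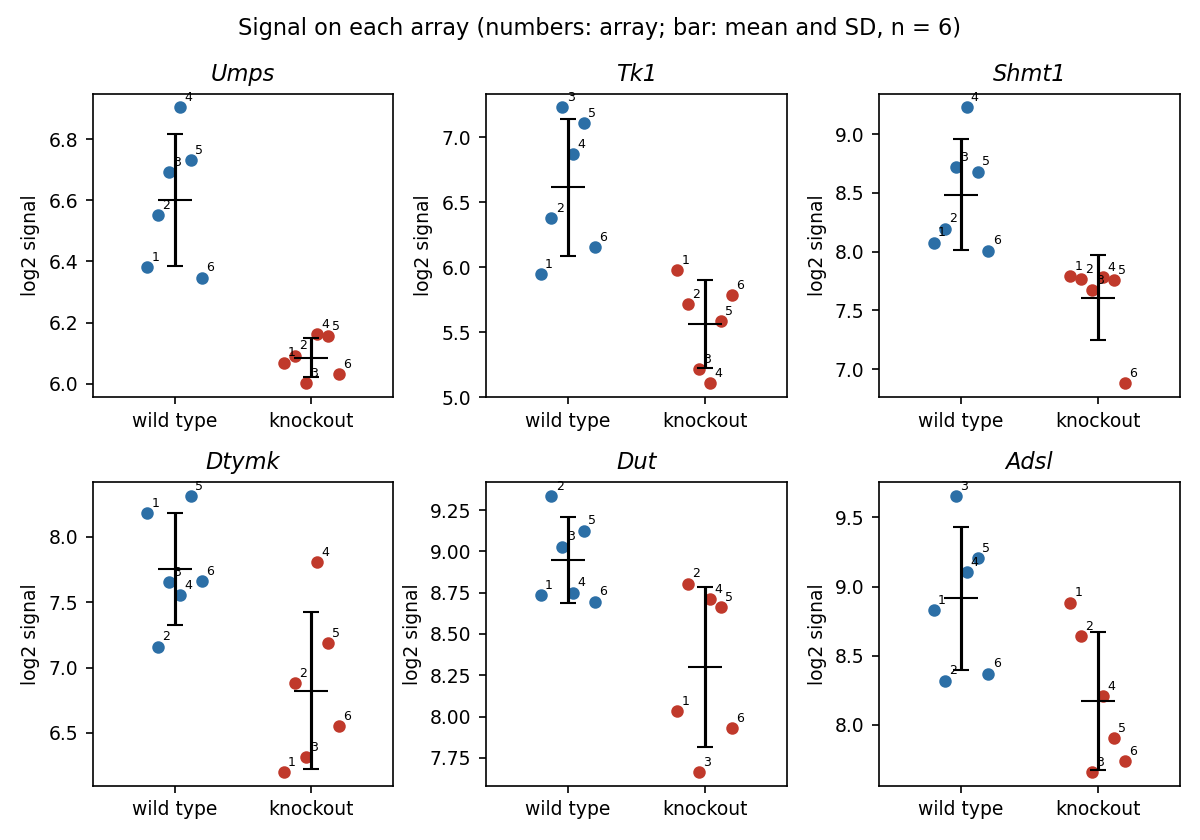
Log2 signal (y axis) of 6 genes on each of the 12 arrays is shown by group (x axis), with the array number beside each point and bars for the mean and SD of 6 arrays. Umps and Shmt1 are separated between the groups, whereas Tk1, Dtymk, Dut and Adsl overlap in 1 or more tumours.

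In purine synthesis, by the probe set used for each gene, 0 of 12 genes passed in either direction. At an unadjusted limma p under 0.05 there were 1 lower and 0 higher. That is 8.33% lower, no more than the 10.5% of all genes tested. Of the 12, 8 had a negative difference (66.7%, against 49.2% of all genes tested). The gene lower at the unadjusted level was Adsl, which acts both in making the ring and in turning IMP into AMP. It ran from 7.66 (median 8.05) to 8.88 in the knockout and from 8.32 (median 8.97) to 9.66 in the wild type (log2 difference -0.74, 95% interval -1.34 to -0.15, limma adjusted p = 0.159). For Adsl 4 of 6 knockout tumours lay below every wild-type tumour, and knockout tumours 1 and 2 lay inside the wild-type range.

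The 2 other purine genes of largest difference start and continue the ring. Ppat, the amidotransferase that commits PRPP to purines, ran from 5.76 (median 6.75) to 7.56 in the knockout and from 7.06 (median 7.22) to 7.52 in the wild type (log2 difference -0.52, 95% interval -1.13 to 0.08, limma adjusted p = 0.317). The wild-type tumours were close together (SD 0.15) and the knockout tumours were spread (SD 0.71), with 4 of them below the wild type and knockout tumours 4 and 5 level with it. Paics, a bifunctional enzyme of the middle steps, ran from 9.18 (median 10.48) to 10.68 in the knockout and from 9.95 (median 10.64) to 11.18 in the wild type (difference -0.42, interval -1.02 to 0.18, adjusted p = 0.407). Knockout tumours 1 and 4 were low for Paics and the other 4 overlapped the wild type. The probe sets not used were at -0.45 (SE 0.17) for Ppat and at -0.40 (SE 0.18) and -0.33 (SE 0.17) for Paics.

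Gart, a trifunctional enzyme of the purine ring whose steps include a folate-dependent one, was looked at after its values were seen because its probe sets disagreed. The probe set used for it ran from 7.36 to 8.98 in the knockout and from 7.32 to 8.10 in the wild type (log2 difference 0.24, SE 0.28, limma adjusted p = 0.642), with knockout tumours 4 and 5 highest. Another Gart probe set had a difference of -0.88 (SE 0.26), running from 5.19 to 7.15 in the knockout and from 6.82 to 7.24 in the wild type. The third had a difference of -0.01 (SE 0.15). Gart and Umps are the 2 members on chromosome 16, where Hunk also lies. RefSeq places 16 protein-coding genes between Hunk and Gart, and 295 between Hunk and Umps. The targeted allele was built from DNA of a strain other than FVB, and whether linked sequence of that strain bears on these probe sets was not tested.

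The remaining purine genes did not pass. Nme2, a nucleoside diphosphate kinase that passes phosphate between all nucleotides, ran from 11.71 (median 11.90) to 12.17 in the knockout and from 11.83 (median 12.14) to 12.37 in the wild type (log2 difference -0.23, 95% interval -0.48 to 0.03, limma adjusted p = 0.302). The other 7 were Nme1, the PRPP synthetases Prps1 and Prps2, the IMP dehydrogenase Impdh1, the adenylosuccinate synthetase Adss, and the salvage enzymes Hprt and Aprt. Their log2 differences ran from -0.28 to 0.18, with a smallest limma adjusted p of 0.467. Both base salvage genes, Hprt and Aprt, were among the 3 of the 7 with a positive difference. Impdh1, Tyms and Prps2 had the smallest within-group SDs of the 31 (0.12, 0.14 and 0.14), and the intervals of the 2 purine genes were narrow (-0.12 to 0.33 for Impdh1 and -0.35 to 0.13 for Prps2). These hold for the probe sets used. Another Prps2 probe set had a difference of -0.55 (SE 0.19), outside that interval. It ran from 4.74 to 6.00 in the knockout and from 5.62 to 6.09 in the wild type.

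In the folate and serine class 0 of 7 genes passed either way. At an unadjusted limma p under 0.05 there were 2 lower (28.6%, against 10.5% of all genes tested) and 0 higher. Shmt1, the cytosolic serine hydroxymethyltransferase, came nearest. It ran from 6.88 (median 7.76) to 7.79 in the knockout and from 8.01 (median 8.44) to 9.23 in the wild type. All 6 knockout tumours lay below every wild-type tumour, and 5 of the 6 lay between 7.67 and 7.79. The log2 difference was -0.88 (SE 0.23, 95% interval -1.38 to -0.37, limma adjusted p = 0.0614), and the adjusted p ran from 0.0584 to 0.117 with 1 array left out. It passed with array weights (adjusted p = 0.0379) and among genes above the 75th percentile of mean signal (adjusted p = 0.0473).

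Neither mitochondrial folate gene passed, and their differences had opposite signs. Shmt2, the mitochondrial hydroxymethyltransferase, ran from 8.59 to 9.43 in the knockout and from 9.11 to 9.66 in the wild type, and it was the other gene lower at the unadjusted level. Mthfd2, the mitochondrial methylenetetrahydrofolate dehydrogenase, ran from 5.58 (median 7.96) to 8.83 in the knockout and from 5.85 (median 7.30) to 7.83 in the wild type (log2 difference 0.50, 95% interval -0.64 to 1.64, limma adjusted p = 0.605). It had the widest within-group spread of the 31 (SD 1.00), with knockout tumours 1, 4 and 5 high and knockout tumour 6 and wild-type tumour 4 low. Mthfd1, the cytosolic trifunctional folate enzyme, ran from 7.27 to 8.48 in the knockout and from 7.64 to 8.67 in the wild type.

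The 3 serine synthesis genes did not share a direction. Phgdh, which draws 3-phosphoglycerate into the pathway, ran from 9.23 (median 10.26) to 11.27 in the knockout and from 9.36 (median 10.16) to 10.23 in the wild type (log2 difference 0.33, 95% interval -0.36 to 1.02, limma adjusted p = 0.576). Knockout tumours 1, 4 and 5 were above every wild-type tumour, the same 3 that were high for Mthfd2. Psat1, the aminotransferase of the next step, ran from 9.65 to 10.76 in the knockout and from 9.40 to 10.09 in the wild type, and here knockout tumours 2 and 3 were the high ones. Psph, the phosphatase that releases serine, ran from 5.89 (median 6.73) to 7.62 in the knockout and from 6.71 (median 7.07) to 7.86 in the wild type (difference -0.51, interval -1.13 to 0.12, adjusted p = 0.344).

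**Figure D3:**
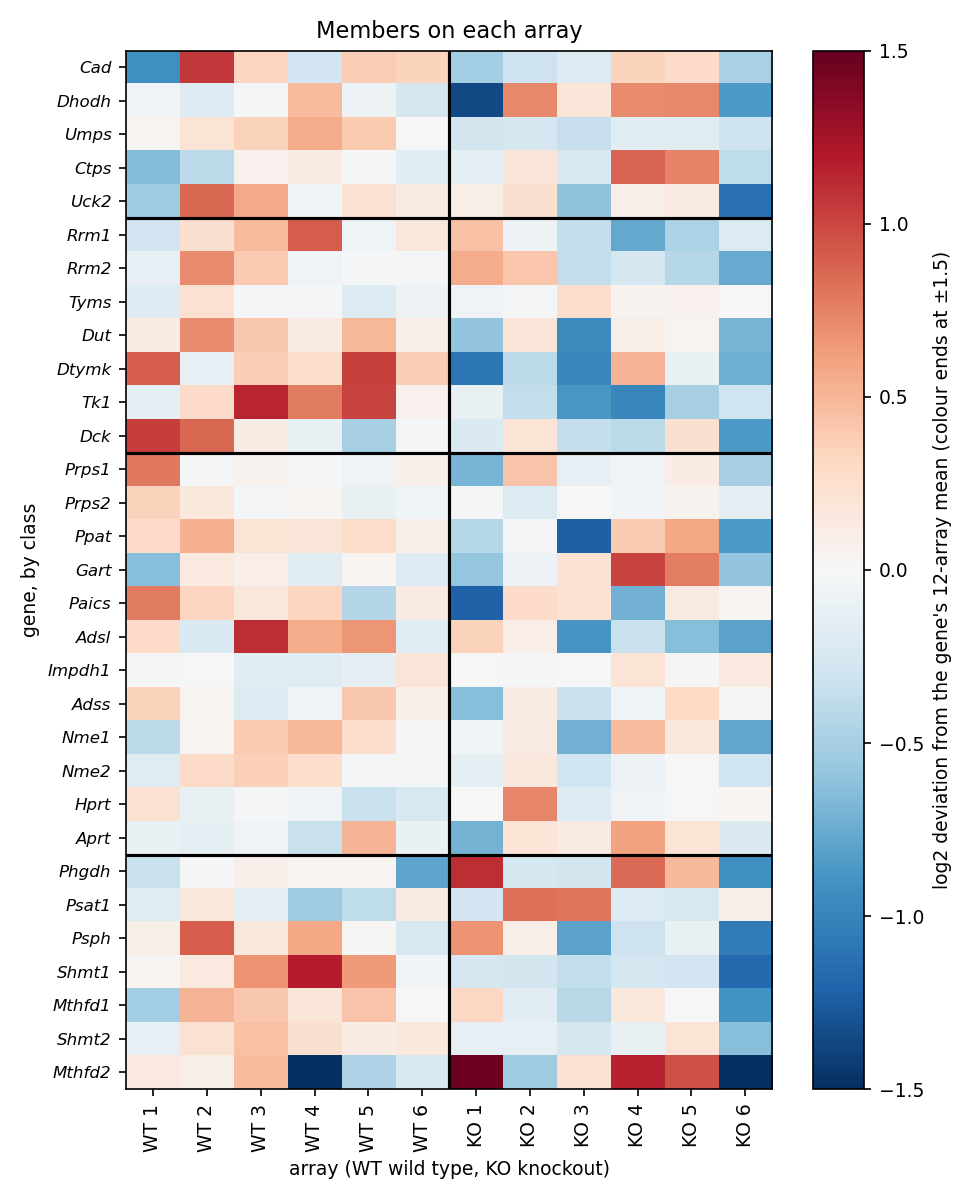
Each cell is the log2 deviation of a gene (rows, by class) on an array (columns, 6 wild type then 6 knockout) from that gene's mean over the 12 arrays, with colour ending at ±1.5. Knockout tumour 6 is low for most genes, and Phgdh and Mthfd2 are high together in knockout tumours 1, 4 and 5.

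Compared by class, the median log2 difference was -0.48 for the deoxynucleotide genes, -0.33 for folate and serine, -0.30 for pyrimidine and -0.21 for purine genes, beside 0.01 for all genes tested. The deoxynucleotide genes had 6 of 7 differences below 0, the purine genes 8 of 12, the folate and serine genes 4 of 7 and the pyrimidine genes 3 of 5. These are descriptions, and the order of the classes was not tested. The pyrimidine median was -0.51 without wild-type tumour 1 and -0.12 without wild-type tumour 2, and the purine median was -0.14 without knockout tumour 1. The level of a class on an array was taken as the median deviation of its genes from their 12-array means. For the deoxynucleotide genes it ran from -0.69 (median -0.19) to -0.03 in the knockout and from -0.12 (median 0.10) to 0.39 in the wild type. All 6 knockout tumours were thus below 0, and only wild-type tumours 1 and 5 were. The purine level ran from -0.29 to 0.12 in the knockout and from -0.02 to 0.26 in the wild type, and the pyrimidine level from -0.49 to 0.34 and from -0.53 to 0.33. The folate and serine level ran from -0.92 to 0.31 in the knockout and from -0.12 to 0.41 in the wild type, with knockout tumours 2, 3 and 6 below every wild-type tumour.

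Knockout tumour 6 weighed on these levels. It held the lowest signal of the 12 arrays for 11 of the 31 genes (35.5%, against 8.48% of all genes tested) and the highest for 0. Its folate and serine level was -0.92, where the other knockout tumours ran from -0.28 to 0.31. Without it the class medians were -0.19 for folate and serine, -0.21 for pyrimidine, -0.16 for purine and -0.49 for deoxynucleotide genes. Of the 31 genes 0 passed without it, as was also so without knockout tumour 2, 3 or 5 or wild-type tumour 3, 4 or 5. The differences of Tk1 and Umps without knockout tumour 6 were -1.09 and -0.505.

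Cell division genes were measured beside the deoxynucleotide genes. Of 29 tested genes of a cell division list all had a negative difference, and 5 fell, 0 rose and 24 did not pass, with a median of -0.62. Those that fell were Cenpf (-1.16), Mad2l1 (-0.89), Cdc20 (-0.82), Ttk (-0.82) and Kif11 (-0.71), which act at the kinetochore, the spindle checkpoint and the spindle. The list level ran from -0.66 to 0.14 in the knockout and from -0.12 to 0.52 in the wild type, with knockout tumour 6 lowest. In a DNA replication list 24 of 26 genes had a negative difference and 0 passed either way (12 lower and 0 higher at an unadjusted limma p under 0.05, median -0.47), with Pola1 at -0.92 and Rfc5 at -0.82. With the division list level as a covariate the difference was -0.51 for Tk1 (limma adjusted p = 0.522) and -0.36 for Umps (adjusted p = 0.364), and that for Shmt1 -0.35 (adjusted p = 0.688). It was positive for Rrm2 (0.43), Psph (0.42), Uck2 (0.33) and Nme2 (0.082), and 0 of the 31 passed. With the beta-actin measure added as a covariate it was -0.75 for Tk1 (adjusted p = 0.33) and -0.47 for Umps (adjusted p = 0.206). Both covariates differed between the groups, and their part in the result was not tested further.

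**Figure D4:**
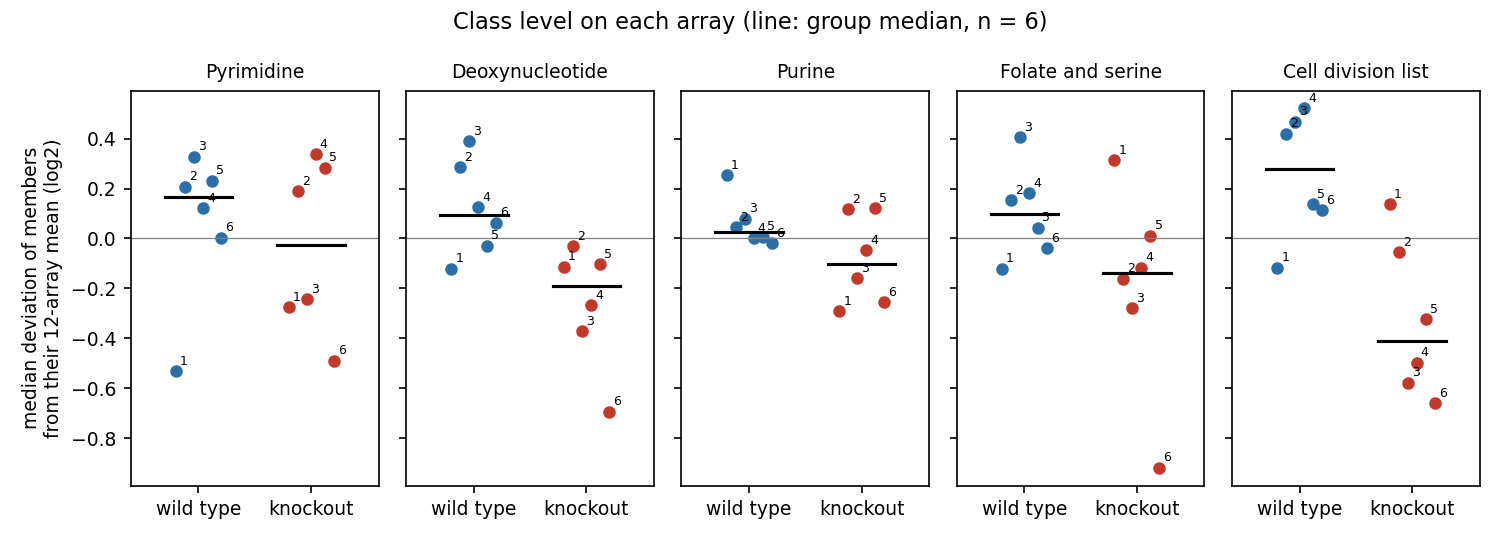
The class level on each array (y axis, median log2 deviation of the class's genes from their 12-array means) is shown for 4 enzyme classes and for the cell division list, with wild-type and knockout arrays apart on the x axis, array numbers at the points and a line at the group median. Knockout tumour 6 is the lowest knockout tumour in each panel except purine, and the division list is lower in most knockout tumours.

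Markers of cell types were measured beside these genes, and the counts below are of those above the expression filter. The lists held 10 luminal, 10 milk, 10 macrophage, 8 basal, 8 adipocyte, 9 fibroblast, 11 lymphocyte, 7 endothelial and 8 skeletal muscle markers. Of 10 luminal markers 2 rose (Krt19 and Cd24a), 0 fell and 8 had a positive difference, with a summed linear signal from 15915 to 23078 in the knockout and from 11717 to 18984 in the wild type. Of 9 milk markers Elf5 rose and 8 had a positive difference, with sums from 1366 to 58734 in the knockout and from 2937 to 28509 in the wild type. Fibroblast markers were positive in 5 of 5 (sums 2200 to 6165 against 1694 to 3778), adipocyte markers in 2 of 2 (133 to 3059 against 47 to 328) and lymphocyte markers in 3 of 3 (66 to 95 against 64 to 77). Macrophage markers were negative in 8 of 10 (1680 to 3995 against 1923 to 3497). Basal markers were negative in 2 of 5, and endothelial and skeletal muscle markers in 1 of 2 each. The basal sums ran from 617 to 1547 in the knockout and from 454 to 1470 in the wild type, with the list level of wild-type tumour 6 far above the other arrays (2.49). The endothelial sums ran from 42 to 48 and from 40 to 51. The skeletal muscle sums ran from 23 to 5737 in the knockout and from 23 to 461 in the wild type, with knockout tumour 3 far above the others, and Acta1, a muscle actin, reached a log2 signal of 12.41 in the knockout. In none of the cell type lists other than luminal and milk did a gene pass in limma. At an unadjusted p under 0.05 those lists had 1 basal, 2 adipocyte, 2 fibroblast and 1 macrophage gene higher and 3 macrophage genes lower. The marker of highest mean signal in each of these lists, milk included, had a log2 difference of -2.25 (SE 1.51) for Csn3 of milk, 0.24 for Acta2, 1.51 for Fabp4, 0.94 for Col3a1, -0.18 for Lyz2, 0.28 for Ms4a1, 0.026 for Eng and 0.29 for Acta1. With the luminal level as a covariate the differences were -1.49 for Tk1 (limma adjusted p = 0.124) and -0.74 for Umps (adjusted p = 0.12), larger in size than without it. The luminal level itself differed between the groups, from -0.08 to 0.42 in the knockout and from -0.60 to 0.08 in the wild type. Such a fit separates group from luminal level poorly, and 6 genes in all passed in it, against 228 without the covariate. The part of the other cell types in the results was not tested.

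Most genes with several probe sets had them on the same side. Of 68 probe sets of the 31 genes, 61 lay above the filter and 44 of these had a negative difference. Of 19 genes with more than 1 above the filter, 15 had all on the same side, and Gart, Nme1, Psat1 and Shmt2 had probe sets of opposite sign. The probe set of the other sign was close to 0 for Nme1 (0.011, SE 0.082), Psat1 (-0.007, SE 0.340) and Shmt2 (0.002, SE 0.192). All 4 Shmt1 probe sets were negative, from -0.92 (SE 0.20) to -0.38 (SE 0.25). The one at -0.92 ran from 6.43 to 7.02 in the knockout and from 7.30 to 8.34 in the wild type and so also did not overlap. The 3 Dtymk probe sets ran from -0.94 (SE 0.31) to -0.55 (SE 0.20). Of the 3 Umps probe sets, the one used was at -0.52, another at -0.53 (SE 0.22) and the third, at a mean signal of 4.69, at -0.08 (SE 0.08). The groups overlapped for the one at -0.53, unlike for the one used. It ran from 4.54 to 6.04 in the knockout (SD 0.49) and from 5.62 to 6.38 in the wild type. With the probe set of highest variance for each gene, the limma adjusted p of Umps was 0.217.

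**Figure D5:**
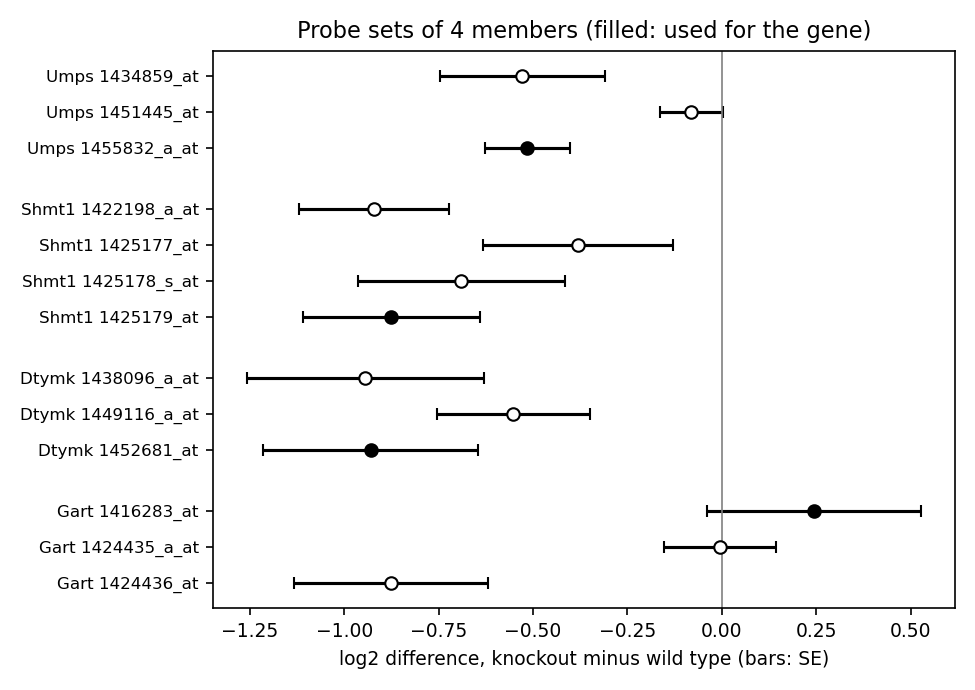
The log2 difference with its SE (x axis) is plotted for each probe set (y axis) of Umps, Shmt1, Dtymk and Gart, filled where the probe set stands for the gene. The Shmt1 and Dtymk probe sets all lie below 0, whereas those of Gart run from -0.88 to 0.24.

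Among other genes of these pathways 1 passed the test. Of 28 tested genes of nucleotide salvage, breakdown and interconversion 1 rose, 0 fell and 27 did not pass, with a median log2 difference of -0.09 and a range from -1.09 to 1.65. The one that rose was Nt5c2, a cytosolic nucleotidase that removes phosphate from IMP and GMP. Its signal ran from 6.36 to 8.11 in the knockout and from 5.11 to 6.70 in the wild type, 3.14-fold higher in the knockout (difference 1.65, SE 0.32, limma adjusted p = 0.0187). The count of higher genes in this list was 0 with the replicate block and with the cell division or luminal covariate, and without wild-type tumour 6 the list had 1 lower gene. At an unadjusted p under 0.05 limma had 3 of the 28 lower (10.7%, against 10.5% of all genes tested) and 1 higher. Over all genes tested 1.66% were called higher, and 1 called gene of 28 is a small count beside that. Of 19 genes of the folate and methionine cycles, transport and related amino acid metabolism 0 passed either way. At the unadjusted level 1 of the 19 was lower (5.26%) and 0 were higher. Their median difference was -0.05, with a range from -0.74 to 1.40. The largest differences were of Folr1, a folate receptor (1.40, SE 0.78, adjusted p = 0.338), and Sardh, the sarcosine dehydrogenase (0.75, SE 0.56, adjusted p = 0.466).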

How the data were processed

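The authors deposited 1 table of 22690 probe sets by 12 arrays, whose values are read as log2 signals. GCRMA is the only tool named, per the submitters' processing notes, without a version. Values were used as deposited, and 0 columns were left unused. Symbols came from the platform annotation (20393 probe sets with 1 symbol, 691 with several, 1606 unlisted), updated through a RefSeq gene table of GRCm38.p6 used for names and neighbours, where 20351 matched. Array background was the highest of 27 Bacillus control probe sets.

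The test was limma 3.58.1 in R 4.3.3 (lmFit, eBayes with trend), group as the only term, on 6825 genes, each its probe set of highest mean, with a mean above 3.98, and Benjamini-Hochberg adjustment. Members, lists and tests were chosen with earlier results of these data known. Named members were Hunk, those past the threshold or not overlapping, and in each class the 3 of largest difference and the one of highest mean. From each pathway, replication and division list up to 4 called genes, else 2, were named, and from cell type lists the gene of highest mean. Krt19, Cd24a, Elf5 and Kif11 fall outside this rule and were named after their values were seen, as was Gart. The remaining members also fall outside it and are given by their ranges. Remarks on single tumours or probe sets of these members were made after their values were seen. Permutation tests were exact over 924 splits, with a smallest p of 0.00216.

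In a simulation of this comparison on 6791 genes, 61.3% of genes changed by 1 on the log2 scale and 85.4% of those changed by 2 were recovered, with 7 false calls among 140. Each simulated gene was drawn on its own, without the likeness between arrays seen in the data, such as that of knockout tumours 4 and 5. These rates may therefore not hold for the real arrays. Alternatives were other filters, eBayes settings, normalizations, probe-set choices, covariates, array weights, a replicate block, averaging knockout tumours 4 and 5, a floor, an offset and leaving out each array. Figures were drawn with matplotlib 3.10.9.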

Additional observations from a re-analysis of the deposited data

Results flagged for a closer look

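Among 46 groups of 6 arrays looked at (named genes, class levels, Hunk and the beta-actin difference), 3 held a sample far from the others, where chance gives about 1 in 20. For Shmt1, knockout tumour 6, at 6.88, lay below the other knockout tumours, which ran from 7.67 to 7.79. For Hunk, knockout tumour 4, at 2.60, lay below the others (2.94 to 3.06), all under array background. The purine class level of wild-type tumour 1, at 0.26, lay above the other wild-type tumours (-0.02 to 0.08).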

How the results depend on the processing

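The count of members that were lower is small and rests on the processing. It was 2 as reported, 3 with array weights (Umps, Tk1 and Shmt1) and 1 with the filter at the 75th percentile (Shmt1), with quantile normalization, with the mean of all probe sets or with the probe set of highest variance (Tk1 in these 3). It was 0 with no expression filter, with the beta-actin, cell division or luminal covariate, and with knockout tumours 4 and 5 averaged, and between 0 and 2 with 1 array left out. Umps and Tk1, with means of 6.34 and 6.09, lay below the 75th percentile of 6.53 and were not tested under that filter. No member was higher under any alternative. The all-gene count was 228 as reported, 112 with no filter, 390 with array weights, 72, 78 and 6 with the beta-actin, cell division and luminal covariates, 125 with knockout tumours 4 and 5 averaged, and 92 (without wild-type tumour 4) to 212 with 1 array left out. Members with a negative difference numbered 17 (cell division covariate) to 26 (luminal covariate). The pyrimidine median was -0.74 with the luminal covariate and the folate and serine median 0.28 with the cell division covariate. The other class medians stayed within the spread between arrays. With 1 array left out the medians ran from -0.51 to -0.12 for pyrimidine, -0.61 to -0.43 for deoxynucleotide, -0.26 to -0.14 for purine and -0.41 to -0.19 for folate and serine genes. Signs turned, without passing, for Gart (-0.21 with the mean of probe sets, -0.88 with the probe set of highest variance, -0.18 with the beta-actin and -0.45 with the luminal covariate), Ctps (-0.25) and Phgdh (-0.12) with the luminal covariate, Psph (0.082) and Rrm2 (0.05) with the beta-actin covariate, and Nme2 (0.082), Psph (0.42), Rrm2 (0.43) and Uck2 (0.33) with the cell division covariate. The cause was not tested.

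Same-numbered knockout and wild-type arrays had deviations correlated between -0.04 and 0.14, and 3 of 6 knockout arrays were closest to their own number. These values do not settle whether the labels' numbers pair the arrays, and the main fit did not pair them. With the number as a replicate block 69 genes and 0 members passed. The adjusted p of Tk1 ran from 0.0166 to 0.522 over the alternatives other than leaving out an array, that of Umps from 0.024 to 0.364 and that of Shmt1 from 0.0379 to 0.688. The Hunk difference kept its direction and did not pass in any fit over all genes. The Tyms probe set, at a mean signal of 4.49, was near array background, which limits what it can show.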
